A study of Mus musculus with 8 samples.

Results

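A set of 10 genes of meiotic recombination were compared between germ cells made in culture and germ cells of the embryo, as rows of a table of read counts per gene. The 10 genes, Spo11, Mei1, Prdm9, Dmc1, Meiob, Tex15, Msh4, Msh5, Hfm1 and Tex11, are given by symbol for their role in recombination, with earlier results of these data known, and all 10 were found among the 21950 genes of the table. The d6PGCLCs (primordial germ cell-like cells) were derived from 1 iPSC line of mouse, which carries the reporters Blimp1-Venus and Stella-ECFP, and were collected as cells positive for both reporters 6 days after differentiation from EpiLCs (epiblast-like cells) began, at day 8 of culture. The E12.5 PGCs were sorted as SSEA1- and integrin β3-positive cells from female gonads of C57BL/6J fetuses at E12.5. Each group had 4 pools from independent experiments, so that neither a single animal nor a second iPSC line can be read from these data, and the difference between the groups also holds the differences between an iPSC line and an inbred strain and between the 2 sorts. The paper also describes d6PGCLCs as comparable to migrating PGCs, which are of an earlier stage than E12.5. Culture and stage therefore cannot be told apart here. The comparison asks how far the germ cells made in culture had come towards those of the gonad at the transcript level.

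Meiotic recombination starts with programmed double-strand breaks, which are made by the topoisomerase-like protein SPO11 and placed by the histone methyltransferase PRDM9. The broken ends are resected and coated, and the recombinase DMC1 carries the single strand into the homologous chromosome. A part of these joints is stabilised by the MutSγ complex of MSH4 and MSH5 with the helicase HFM1 and the protein TEX11 and becomes crossovers. Female germ cells of the mouse enter meiosis in the fetal gonad, and transcripts of these genes can appear before the proteins act.

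At the transcript level the 10 genes did not move together. Spo11, Tex15, Tex11, Msh4, Hfm1 and Dmc1 were lower in d6PGCLCs than in E12.5 PGCs, Msh5 and Meiob were higher, and Mei1 and Prdm9 did not pass the test. Among all genes of the table, 15.4% were lower and 16.1% higher at the same threshold, an adjusted p of at most 0.05 in edgeR's quasi-likelihood test. Many genes of the table had few or no counts, and among the 12397 genes with a mean above 0.5 CPM, which hold all of the 10 but Mei1, 25.2% were lower and 27.2% higher. With a log2 fold change of at least 2 in size as well, 4 of the 10 were lower (Spo11, Tex15, Tex11 and Msh4), against 3.37% of all genes, and 1 was higher (Meiob), against 3.24% of all genes. The count of 4 was 3 to 5 when libraries were left out, and 3 with a prior count of 2, with filterByExpr or at an adjusted p of at most 0.01. In each case that gave 3, the call lost was that of Msh4. The median log2 fold change of the 10 genes, d6PGCLC over E12.5 PGC, was -1.34, and the median over all genes was 0. The levels of the 4 d6PGCLC libraries and of the 4 E12.5 PGC libraries did not overlap for 5 genes that were lower (Spo11, Dmc1, Tex15, Hfm1 and Tex11) and for 1 that was higher (Msh5), whereas 14.8% of all genes were lower and 15.4% were higher without overlap (23.9% and 26.1% of those above 0.5 CPM). Of the 10 genes, 8 passed a filter of more than 1 CPM in at least 3 libraries, and Mei1 and Meiob did not.

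The libraries held between 7991437 and 12024841 counted reads, so that 3 counts, taken as the limit of detection, correspond to between 0.249 and 0.383 CPM (counts scaled to a common library total with TMM); this limit covers counting error only. The germ cell labels were checked against 9 marker genes, of which 3 were lower in d6PGCLCs (Ddx4, Dazl and Sox17), 4 higher (Pou5f1, Dppa3, Prdm1 and Tfap2c) and 2 did not pass. Pou5f1 (1632 ± 157 and 980 ± 107 CPM in d6PGCLCs and E12.5 PGCs, SD, n = 4 each) and Kit (484 ± 25.5 and 424 ± 37.9 CPM) were abundant in both groups, and the later germ cell genes Ddx4 (35.5 ± 6.60 and 760 ± 92.2 CPM) and Dazl (37.7 ± 23.2 and 1262 ± 241 CPM) were mainly those of E12.5 PGCs. Sox17 was low in both (0.285 ± 0.273 and 1.24 ± 0.52 CPM), and Dppa3 and Prdm1, whose reporters were used in the sort of d6PGCLCs, were 1.80-fold and 2.31-fold higher there. Of 13 genes of gonadal somatic cells, 11 had counts in d6PGCLCs and 13 in E12.5 PGCs, with summed levels of 7.13 to 8.85 and 9.03 to 16.5 CPM. Without Star, the most abundant of them, the sums were 0.830 to 2.18 and 3.88 to 9.89 CPM, and 5 of the 13 genes (Wt1, Gata4, Wnt4, Fst and Pdgfra) were lower in d6PGCLCs in the same test, with log2 fold changes of -3.38 to -2.70, and 0 were higher. Of 8 genes of other embryonic lineages, 6 and 8 had counts, with sums of 19.7 to 36.3 and 69.1 to 79.9 CPM (3.82 to 7.27 and 30.2 to 32.5 CPM without Cdx2, the most abundant), and 6 were lower and 1 was higher in d6PGCLCs. Of 7 genes of blood and endothelium, 4 and 5 had counts, with sums of 6.76 to 16.7 and 3.69 to 12.6 CPM (0.128 to 0.713 and 0.0922 to 6.74 CPM without Cdh5, the most abundant), and 1 was lower and 1 higher in d6PGCLCs. Lyve1 was at 0 in both groups, Hba-a2 and Hbb-bs were at 0 in d6PGCLCs, and Ptprc was at 0 in E12.5 PGCs. Although the E12.5 PGCs are labelled as female, 7 of 9 Y-linked genes had counts in E12.5 PGC replicate 4, which summed to 8.94 CPM, and none had a count in the other 7 libraries. The part of these cells in the results was not tested, and the results below are also given without E12.5 PGC replicate 4 where that mattered. In pools of cells, fewer cells that express a gene and less RNA per cell cannot be told apart.

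For 6 of the 10 genes RefSeq gives 7 promoter windows on GRCm38 (2 for Prdm9 and 1 for each of the others), each from 250 bases before to 50 bases after a transcript start, and for Spo11, Tex15, Meiob and Tex11 no window was used here. The windows were searched on both strands for 4 short motifs, the E-box CACGTG (its own reverse complement), the E2F-type hexamer TCCCGC, the STRA8-type motif CNCCTCAG and the NRF1-type motif GCGCATGC. The E2F hexamer was in 5 of the 7 windows, those of Dmc1, Hfm1 and Msh5 and both of Prdm9, and in 20.0% of all 32851 windows of the table, which cover 27025 genes. The STRA8-type motif was in 3 of the 7 (those of Hfm1 and Msh5 and 1 of Prdm9), against 7.94% of all windows, and the NRF1-type motif in that of Hfm1 (2.71%), as a pair of overlapping matches on opposite strands. None of the 7 windows held the E-box, which was in 7.15% of all windows. Of these promoters, 3 are printed because the genes share the E2F hexamer and yet differ in direction, Dmc1 and Hfm1 being lower and Msh5 higher in d6PGCLCs. They run 5′ to 3′ along the gene from 250 bases before to 30 bases after the start, with the hexamer on either strand in capitals. The window of Dmc1 is chr15:79605080-79605359, minus strand, that of Hfm1 is chr5:106925861-106926140, minus strand, and that of Msh5 is chr17:35046593-35046872, minus strand.
Dmc1: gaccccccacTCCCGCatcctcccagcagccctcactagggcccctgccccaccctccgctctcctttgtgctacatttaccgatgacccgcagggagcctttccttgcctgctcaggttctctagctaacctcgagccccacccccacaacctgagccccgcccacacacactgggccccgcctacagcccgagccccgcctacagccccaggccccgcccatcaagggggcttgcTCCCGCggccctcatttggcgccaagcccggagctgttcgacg
Hfm1: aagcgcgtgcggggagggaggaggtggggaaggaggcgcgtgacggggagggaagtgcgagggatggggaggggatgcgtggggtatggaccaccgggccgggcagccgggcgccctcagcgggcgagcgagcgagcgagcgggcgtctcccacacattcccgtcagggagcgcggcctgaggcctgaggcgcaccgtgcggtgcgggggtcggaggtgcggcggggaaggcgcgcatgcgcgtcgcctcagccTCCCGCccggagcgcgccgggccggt
Msh5: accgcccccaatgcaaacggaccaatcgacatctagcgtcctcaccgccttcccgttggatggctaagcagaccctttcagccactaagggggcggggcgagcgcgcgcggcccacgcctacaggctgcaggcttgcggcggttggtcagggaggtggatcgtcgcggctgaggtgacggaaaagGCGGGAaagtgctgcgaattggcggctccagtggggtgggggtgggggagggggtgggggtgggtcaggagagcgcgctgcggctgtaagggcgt

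In Dmc1 the hexamer begins at positions -240 and -13 from the start, in Hfm1 at position 5 after it. In Msh5 it lies on the opposite strand at -65, and a second match at 36 is beyond the printed stretch. The window of Hfm1 is also the richest in CpG of the 6 genes, with 41 CpG in 300 bases, against 27 in Msh5, 18 in Dmc1 and a median of 7 over all windows. The windows of Prdm9 held 9 and 18 CpG. The E2F hexamer itself holds a CpG, and the shares over all windows were not matched for CpG content. The windows of Msh4 and Mei1 held 6 and 8 CpG and none of the 4 motifs. They belong to transcript starts inside these genes, 1247 and 12402 bases from the 5′ end of the gene in RefSeq. The starts used for Hfm1, Msh5 and 1 window of Prdm9 also lie inside the gene, 822, 375 and 1043 bases from that end. For Msh4, Mei1, Hfm1 and Msh5 the promoters at that end were therefore not searched. The starts of Dmc1 and of the other window of Prdm9 lie 50 and 20 bases from it, within reach of the window. A match is a stretch of letters and was not measured as a binding site here.

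The genes that make and place breaks came first. Spo11 (Entrez 26972, chr2:172977379-172993576, plus strand) encodes the catalytic protein of break formation. Its level was 0.383, 1.12, 2.32 and 2.30 CPM in d6PGCLC replicates 1 to 4, from 3, 11, 28 and 19 counts. In E12.5 PGC replicates 1 to 4 it was 11.7, 12.2, 11.7 and 10.7 CPM. The highest d6PGCLC library therefore stood well below the lowest E12.5 PGC library, and Spo11 had the lowest log2 fold change of the 10 genes, -2.87 ± 0.31 (SE, adjusted p = 1.35e-07), a level 7.30-fold higher in E12.5 PGCs. Among the E12.5 PGC libraries the level of Spo11 differed by a factor of 1.14, and among the d6PGCLC libraries by a factor of 6.07. d6PGCLC replicate 1 was at the detection limit of 3 counts, and without it the log2 fold change was -2.59.

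Mei1 (Entrez 74369, chr15:82070074-82126817, plus strand), a gene required for break formation, was near the detection limit in both groups. It had 0, 5, 2 and 2 counts in d6PGCLC replicates 1 to 4 and 4, 8, 7 and 7 counts in E12.5 PGC replicates 1 to 4. Its log2 fold change of -1.43 ± 0.69 (SE) did not pass the test (adjusted p = 0.103), and d6PGCLC replicate 2 overlapped the E12.5 PGCs. Without that library the value was -2.13 and passed (adjusted p = 0.0391), and it also passed with edgeR's likelihood ratio test (adjusted p = 0.0348).

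Prdm9 (Entrez 213389, chr17:15543072-15564374, minus strand) was low and close in the groups, with 1.40, 1.32, 1.66 and 0.849 CPM in d6PGCLC replicates 1 to 4 and 1.37, 1.16, 0.922 and 0.993 CPM in E12.5 PGC replicates 1 to 4. The ranges of the groups overlapped, and the log2 fold change was 0.27 ± 0.38 (SE, adjusted p = 0.754). From 7 to 20 counts per library, a change of the size seen for Dmc1 would have been little more than 2 such standard errors, so that these data do not show equal levels.

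Of 5 partners of break formation in the table, 2 were lower in d6PGCLCs and 0 higher in the edgeR test. Zcwpw1, whose product reads the histone marks made by PRDM9, was the most abundant of them, with means of 64.2 ± 11.1 (d6PGCLC) and 203 ± 14.1 CPM (E12.5 PGC; log2 fold change -1.66 ± 0.11, SE, adjusted p = 2.13e-10). PRDM9's own transcript thus stood at about 1 CPM in both groups while that of its reader differed between them. Rec114, an accessory factor of SPO11, was at 12.4 ± 5.21 and 32.8 ± 3.85 CPM (log2 fold change -1.40, adjusted p = 1.36e-05). Mei4, which acts with REC114, had means of 13.3 ± 1.53 CPM (d6PGCLC) and 9.87 ± 0.60 CPM (E12.5 PGC), a log2 fold change of 0.43 that did not pass (adjusted p = 0.0542), although its groups did not overlap.

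**Figure D1:**
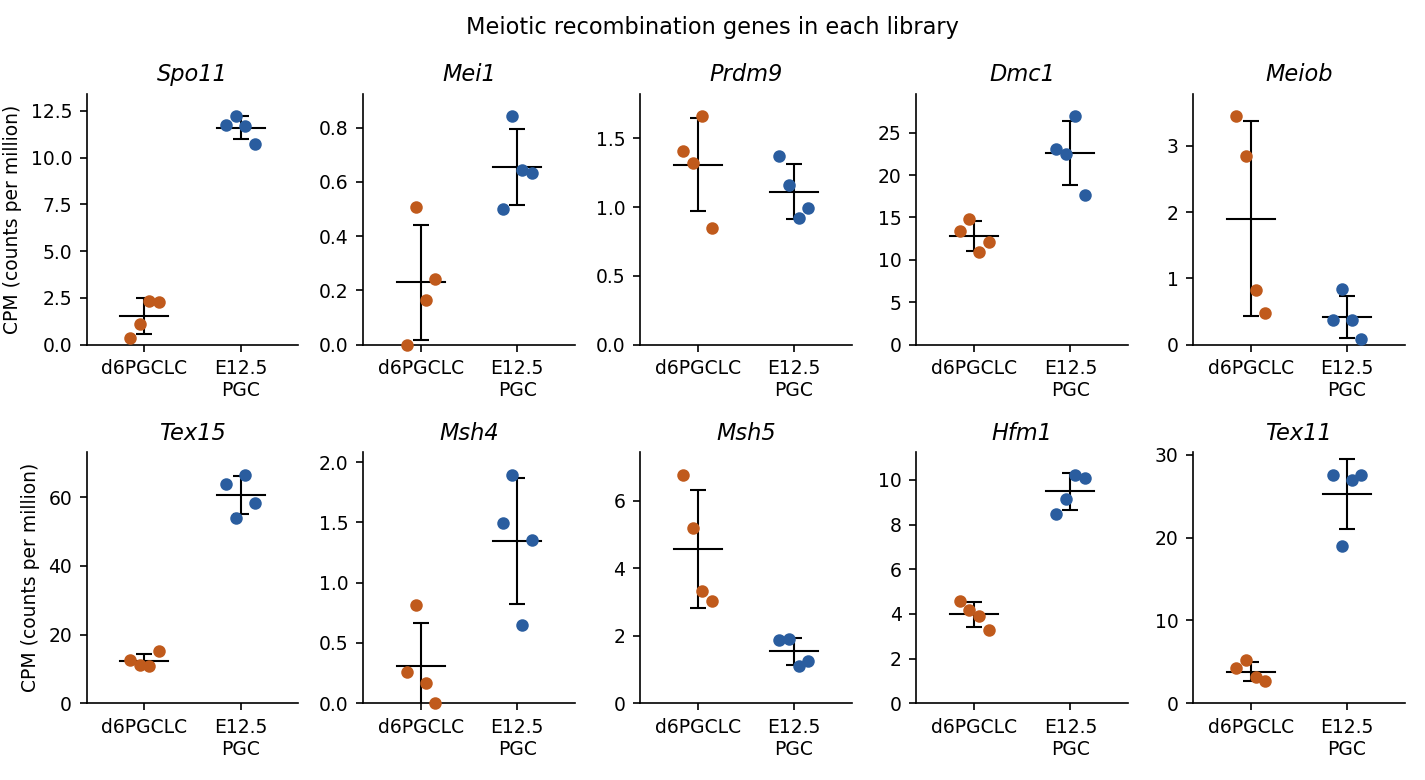
Level of each recombination gene in CPM (vertical axis, linear, from 0) in the 4 d6PGCLC libraries (orange) and the 4 E12.5 PGC libraries (blue), replicates 1 to 4 from left to right, with the mean and SD as black lines. Spo11, Tex15, Tex11, Hfm1 and Dmc1 lie apart and lower in d6PGCLCs, Msh5 lies apart and higher, and the points of Mei1, Prdm9, Meiob and Msh4 overlap between the groups.

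Of the genes of strand exchange, Dmc1 (Entrez 13404, chr15:79561497-79605159, minus strand), the meiotic recombinase, was expressed in both groups. It was at 13.4, 14.9, 10.9 and 12.1 CPM in d6PGCLC replicates 1 to 4 and at 23.1, 22.5, 26.9 and 17.7 CPM in E12.5 PGC replicates 1 to 4. All d6PGCLC libraries lay below all E12.5 PGC libraries, but the difference was the smallest of those that passed, with a log2 fold change of -0.82 ± 0.16 (SE, adjusted p = 0.000434). Per kilobase of counted exon, Dmc1 was the highest of the 10 genes in d6PGCLCs, at 5.06 ± 0.68 RPKM (SD, n = 4), and its range overlapped that of Tex15, the next in order.

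Tex15 (Entrez 104271, chr8:33516689-33592503, plus strand) is needed for the loading of recombinases on breaks, and its product is also known for silencing of transposons in male germ cells. Its level was 12.6, 11.0, 10.9 and 15.2 CPM in d6PGCLC replicates 1 to 4 and 63.9, 53.9, 66.6 and 58.4 CPM in E12.5 PGC replicates 1 to 4. The groups were far apart beside the spread within each, with a log2 fold change of -2.30 ± 0.14 (SE, adjusted p = 3.82e-11). In E12.5 PGCs it was the highest of the 10 genes per kilobase, at 19.8 ± 1.85 RPKM, above the highest library of Dmc1.

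Meiob (Entrez 75178, chr17:24804301-24839788, plus strand), a relative of the single-strand binding protein RPA1, went the other way. It had 27, 28, 10 and 4 counts in d6PGCLC replicates 1 to 4, which are 3.45, 2.85, 0.830 and 0.485 CPM, and 3, 8, 4 and 1 counts in E12.5 PGC replicates 1 to 4, or 0.374, 0.842, 0.369 and 0.0903 CPM. Thus 2 of the 4 d6PGCLC libraries stood above all E12.5 PGC libraries, and the other two lay within their range. The log2 fold change was 2.16 ± 0.65 (SE, adjusted p = 0.00833), and it fell below 2 without d6PGCLC replicate 1 (1.74), d6PGCLC replicate 2 (1.87) or E12.5 PGC replicate 4 (1.80). The test passed in each of these, with adjusted p of 0.0272, 0.0446 and 0.0311.

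Of 7 partners of strand exchange, 3 were lower in d6PGCLCs and 1 was higher. Hsf2bp, which works with Brme1 in the loading of recombinases, was at 23.4 ± 7.29 and 66.0 ± 4.41 CPM (log2 fold change -1.50, adjusted p = 2.37e-07). Brme1, listed by RefSeq as 4930432K21Rik, was at 24.8 ± 4.64 and 46.5 ± 2.50 CPM (log2 fold change -0.91, adjusted p = 1.64e-05). Mcmdc2, a relative of the MCM helicases named after its values were seen, was the third, with a log2 fold change of -1.51 (adjusted p = 0.00177). The 2 subunits of the HOP2-MND1 complex, which stimulates DMC1, did not share a result. Psmc3ip (HOP2) was at 40.7 ± 8.65 and 38.0 ± 6.06 CPM (log2 fold change 0.10, adjusted p = 0.788), whereas Mnd1, also named after its values were seen, was higher in d6PGCLCs, at 16.2 ± 3.73 against 9.73 ± 1.55 CPM (log2 fold change 0.73, adjusted p = 0.00357).

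The crossover genes held differences in both directions. Msh4 (Entrez 55993, chr3:153857141-153906138, minus strand) and Msh5 (Entrez 17687, chr17:35028605-35046997, minus strand) encode the 2 subunits of MutSγ. Msh4 had 2, 8, 2 and 0 counts in d6PGCLC replicates 1 to 4 and 12, 18, 7 and 15 counts in E12.5 PGC replicates 1 to 4, so that the highest d6PGCLC library (0.814 CPM) overlapped the lowest E12.5 PGC library (0.645 CPM). Its log2 fold change was -2.04 ± 0.65 (SE, adjusted p = 0.0119), which was -1.68 and did not pass without E12.5 PGC replicates 2 and 4 together (adjusted p = 0.115), and was -3.13 without d6PGCLC replicate 2 (adjusted p = 0.0017). The value was nearer to 0 than -2 in 5 of the 8 fits that left out 1 library (from -1.99 to -1.68: d6PGCLC replicate 1, 3 or 4, or E12.5 PGC replicate 1 or 2) and with a prior count of 2 (-1.57). Of the exonic sequence of Msh4 in GENCODE M21, 125 of 6895 bases overlap a snoRNA gene on the opposite strand, and whether the counting used strand is not given in the sources used here.

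Msh5 was at 6.77, 5.19, 3.32 and 3.03 CPM in d6PGCLC replicates 1 to 4 and at 1.87, 1.89, 1.11 and 1.26 CPM in E12.5 PGC replicates 1 to 4. Every d6PGCLC library was above every E12.5 PGC library, with a log2 fold change of 1.58 ± 0.33 (SE, adjusted p = 0.000515). The partners of one complex thus differed in opposite directions between the same 8 libraries, Msh4 being lower and Msh5 higher in d6PGCLCs. On the scale per kilobase, Msh5 was at 2.05 ± 0.78 RPKM and Msh4 at 0.128 ± 0.146 RPKM in d6PGCLCs, and they were at 0.688 ± 0.183 and 0.558 ± 0.216 RPKM in E12.5 PGCs, where the ranges of the pair overlapped.

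Hfm1 (Entrez 330149, chr5:106840193-106926712, minus strand), the meiotic helicase, was at 4.60, 4.17, 3.90 and 3.27 CPM in d6PGCLC replicates 1 to 4 and at 8.48, 9.16, 10.2 and 10.1 CPM in E12.5 PGC replicates 1 to 4. The groups were apart with little spread in either, and the log2 fold change was -1.25 ± 0.20 (SE, adjusted p = 3.90e-05). Tex11 (Entrez 83558, chrX:100838648-101059639, minus strand), an X-linked gene whose product works with the crossover proteins, was at 4.21, 5.19, 3.15 and 2.67 CPM in d6PGCLC replicates 1 to 4. In E12.5 PGC replicates 1 to 4 it was at 27.6, 18.9, 26.9 and 27.5 CPM. Its groups were apart by a log2 fold change of -2.73 ± 0.21 (SE, adjusted p = 1.15e-09), and E12.5 PGC replicate 2 stood below the other 3 libraries of its group.

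Of 5 crossover partners, 1 was lower and 1 was higher in d6PGCLCs. Prr19, which with CNTD1 is needed for crossovers to mature, had the largest difference of the 17 meiotic partners, with 2.43, 2.44, 1.33 and 0.970 CPM in d6PGCLC replicates 1 to 4 and 28.6, 33.6, 32.4 and 33.7 CPM in E12.5 PGC replicates 1 to 4 (log2 fold change -4.17 ± 0.23, SE, adjusted p = 4.99e-12). Its partner Cntd1 was at 35.1 ± 3.44 and 30.1 ± 1.70 CPM and did not pass (log2 fold change 0.22, adjusted p = 0.212). Mlh3, whose product acts in the resolution of crossovers, was at 43.9 ± 7.64 and 52.6 ± 3.98 CPM and did not pass either (log2 fold change -0.26, adjusted p = 0.149). The partner that was higher was Ccnb1ip1 (HEI10), a ubiquitin ligase of crossover designation, 2.05-fold (log2 fold change 1.03, adjusted p = 0.000908); it is named here after its values were seen.

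**Figure D2:**
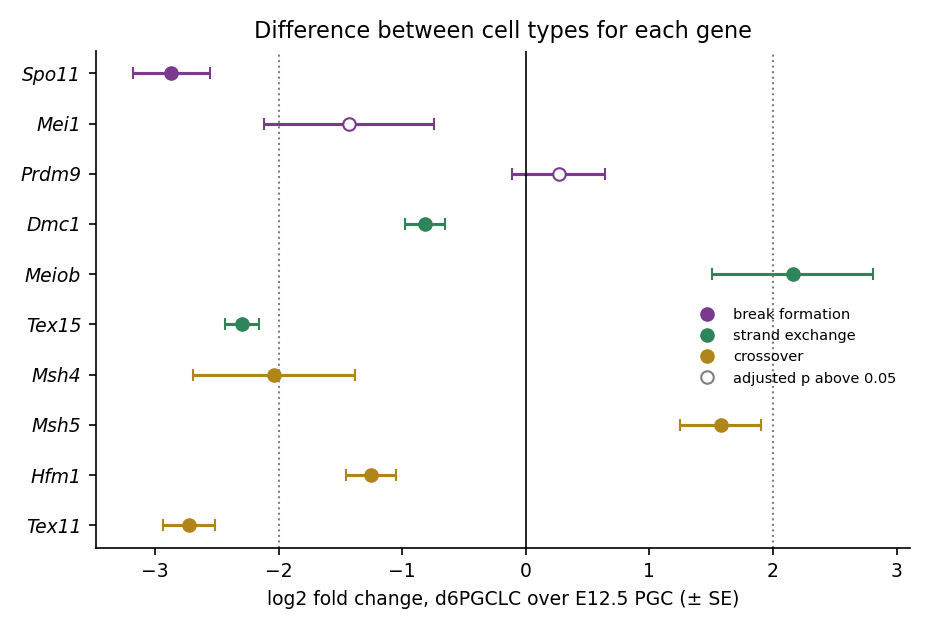
Log2 fold change of d6PGCLC over E12.5 PGC with its SE (horizontal axis) for each of the 10 genes, coloured by step of recombination, open where the adjusted p was above 0.05; dotted lines stand at -2 and 2. Break formation, strand exchange and crossover each hold genes below 0 and 1 gene above 0 (Prdm9, which did not pass, Meiob and Msh5), from -2.87 for Spo11 to 2.16 for Meiob.

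The order of the 10 genes per kilobase of counted exon differed between the groups. In E12.5 PGCs it ran from Tex15 (19.8 RPKM) and Dmc1 (8.90 RPKM) over Tex11 (5.67 RPKM), Spo11 (5.19 RPKM) and Hfm1 (5.17 RPKM) to Msh5, Prdm9, Msh4, Meiob and Mei1, which lay between 0.688 and 0.166 RPKM. Tex15 and Dmc1 were apart from their next neighbours, Tex11, Spo11 and Hfm1 overlapped, and Hfm1 was apart from Msh5. In d6PGCLCs it ran from Dmc1 (5.06 RPKM) and Tex15 (4.05 RPKM) over Hfm1 (2.17 RPKM), Msh5 (2.05 RPKM), Meiob (1.53 RPKM), Tex11 (0.855 RPKM), Prdm9 (0.698 RPKM) and Spo11 (0.685 RPKM) to Msh4 and Mei1. Here the gap between Tex15 and Hfm1 was the only one between neighbours without overlap. Spo11 was thus the fourth of the 10 genes in E12.5 PGCs and the eighth in d6PGCLCs, at the 65.8th and the 50.4th percentile of all genes of the table.

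These levels rest on the exon lengths of the table, which come from 1 isoform per gene. No transcript of GENCODE M21 had exactly the counted length for any of the 10 genes. The counted length of Tex15 was 3069 bases, against 8405 in its longest coding transcript, that of Hfm1 was 1838 against 5018, and that of Meiob was 1242 against 1774. For Tex11 it was 4450 bases, longer than the longest coding transcript of 3278. The levels per kilobase and their order therefore depend on that choice, whereas each gene's own comparison between the groups used the same exons in all 8 libraries.

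Meiob has a relative that acts in all dividing cells, Rpa1, and the pair was compared within each library, where library size cancels. Counts per kilobase of Meiob were 1.77%, 1.41%, 0.441% and 0.274% of those of Rpa1 in d6PGCLC replicates 1 to 4 and 0.203%, 0.457%, 0.199% and 0.0621% in E12.5 PGC replicates 1 to 4. In d6PGCLC replicates 1 and 2 the share stood above all E12.5 PGC libraries, and in replicates 3 and 4 it lay within their range. The difference of log2 ratios was 2.01 and did not pass (exact two-sided permutation p = 0.0857, and 0.0857 after adjustment over 3 ratios), where 4 against 4 libraries can give a p of 0.0286 at the smallest. The level of Rpa1 itself averaged 599 ± 10.6 CPM (d6PGCLC) and 627 ± 29.8 CPM (E12.5 PGC), with a log2 fold change of -0.07 ± 0.08 (SE, adjusted p = 0.658), so that the meiotic gene stood at no more than 1.77% of its relative per kilobase in any library.

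Among 19 ubiquitous relatives and repair genes in the table, 5 were lower and 5 higher in d6PGCLCs, none with a log2 fold change of 2 in size, and the median was 0.01. Msh6, a mismatch repair gene and the most abundant of them, was at 1015 ± 170 and 1007 ± 90.1 CPM (log2 fold change 0.01, adjusted p = 1). Over the 17 meiotic partners, 6 were lower and 2 higher, with a median of -0.41. The log2 fold changes ran from -2.87 to 2.16 in the 10 recombination genes, from -4.17 to 1.03 in the partners, from -1.17 to 0.66 in the relatives and from -5.02 to 0.75 in the 11 genes of meiotic entry and axis. Of the genes with a mean above 0.5 CPM, which hold all 19 relatives, 25.2% were lower and 27.2% higher at the same adjusted p. These counts describe the lists, and no test between lists was made.

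Of 11 genes of meiotic entry and of the chromosome axis, 10 were lower in d6PGCLCs, 6 of them with a log2 fold change below -2, and 1 was higher. The 6 were Stra8, the inducer of meiotic entry (log2 fold change -5.02 ± 0.87, SE, adjusted p = 3.77e-06), Tex12 (-4.64), Hormad1 (-4.01), Sycp2 (-3.00), Sycp1 (-2.57) and Syce1 (-2.34). The one that was higher was Rec8, the meiotic cohesin subunit, with 92.0 ± 6.91 CPM in the d6PGCLC and 54.9 ± 18.0 CPM in the E12.5 PGC libraries (log2 fold change 0.75, adjusted p = 0.000764). Syce2, of the central element of the synaptonemal complex, was the most abundant of them at 181 ± 22.9 and 222 ± 15.5 CPM (log2 fold change -0.29, adjusted p = 0.0278).

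**Figure D3:**
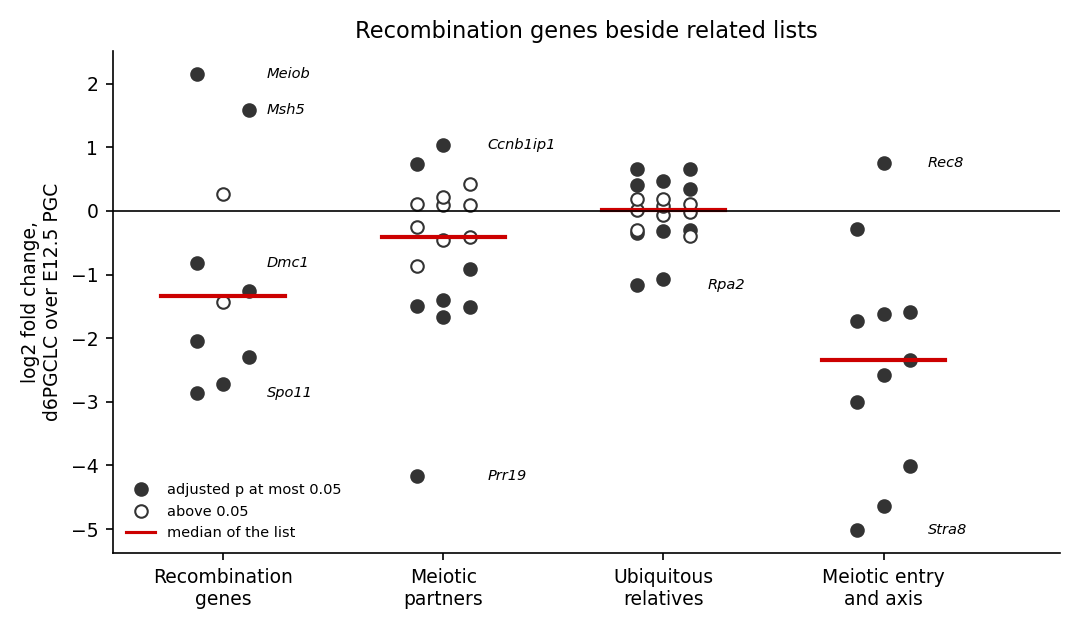
Log2 fold change of d6PGCLC over E12.5 PGC (vertical axis) for each of the 10 recombination genes, 17 meiotic partners, 19 ubiquitous relatives and 11 genes of meiotic entry and axis, filled where the adjusted p was at most 0.05, with the median of each list as a red line. The medians stand at -1.34, -0.41, 0.01 and -2.34.

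The spread between libraries of a group was not the same for all of these genes. Stra8 was at 20.5 and 18.9 CPM in E12.5 PGC replicates 1 and 3 and at 2.74 and 3.70 CPM in replicates 2 and 4, a range of 7.48-fold, and at 0 to 0.664 CPM in d6PGCLCs. Sycp1 was likewise higher in E12.5 PGC replicates 1 and 3 (300 and 350 counts) than in replicates 2 and 4 (175 and 233 counts), and Rec8 was at 76.9 and 61.9 against 37.3 and 43.5 CPM. The 5 recombination genes with the most counts in E12.5 PGCs, Spo11, Tex15, Hfm1, Dmc1 and Tex11, did not range as widely there. Their highest E12.5 PGC library exceeded the lowest by factors of 1.14 for Spo11, 1.24 for Tex15, 1.21 for Hfm1, 1.52 for Dmc1 and 1.46 for Tex11. Among the recombination genes with fewer counts the factor was 9.33 for Meiob (1 to 8 counts), 2.94 for Msh4 (7 to 18 counts), 1.71 for Msh5, 1.69 for Mei1 and 1.49 for Prdm9. Of the 11 genes of meiotic entry and axis, 6 had factors no larger than that of Dmc1, from 1.07 for Syce1 to 1.49, so that the wide range of Stra8 was not shared by most of them. In E12.5 PGCs the chi-square per degree of freedom was taken against equal shares of the TMM-scaled library sizes, and is about 1 for sampling alone. It was 0.343 for Spo11, 0.664 for Hfm1, 5.24 for Tex15, 6.70 for Tex11 and 6.98 for Dmc1. It was 6.23 for Hormad1 and 79.4 for Stra8. Pairs of E12.5 PGC libraries gave 3.19 to 14.2 over all genes, where genes with many counts weigh most.

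In d6PGCLCs the libraries split another way. Meiob was highest in replicates 1 and 2 and lowest in 4, Msh5 was at 6.77 and 5.19 CPM in replicates 1 and 2 against 3.32 and 3.03 CPM in 3 and 4, and the germ cell gene Dazl was at 50.5 and 63.9 against 17.8 and 18.6 CPM. Spo11 had the opposite order, with 0.383 and 1.12 CPM in replicates 1 and 2 against 2.32 and 2.30 CPM in 3 and 4. The chi-square per degree of freedom was 10.6 for Meiob, 5.94 for Msh5, 5.03 for Spo11 and 0.631 for Hfm1. Pairs of d6PGCLC libraries gave 4.55 to 20.8 over all genes, where genes with many counts weigh most. Meiob, Msh5 and Spo11 had 69, 169 and 61 summed counts, so whether their spread stands out from that of the table was not tested. With 4 libraries no correlation between these genes was computed.

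**Figure D4:**
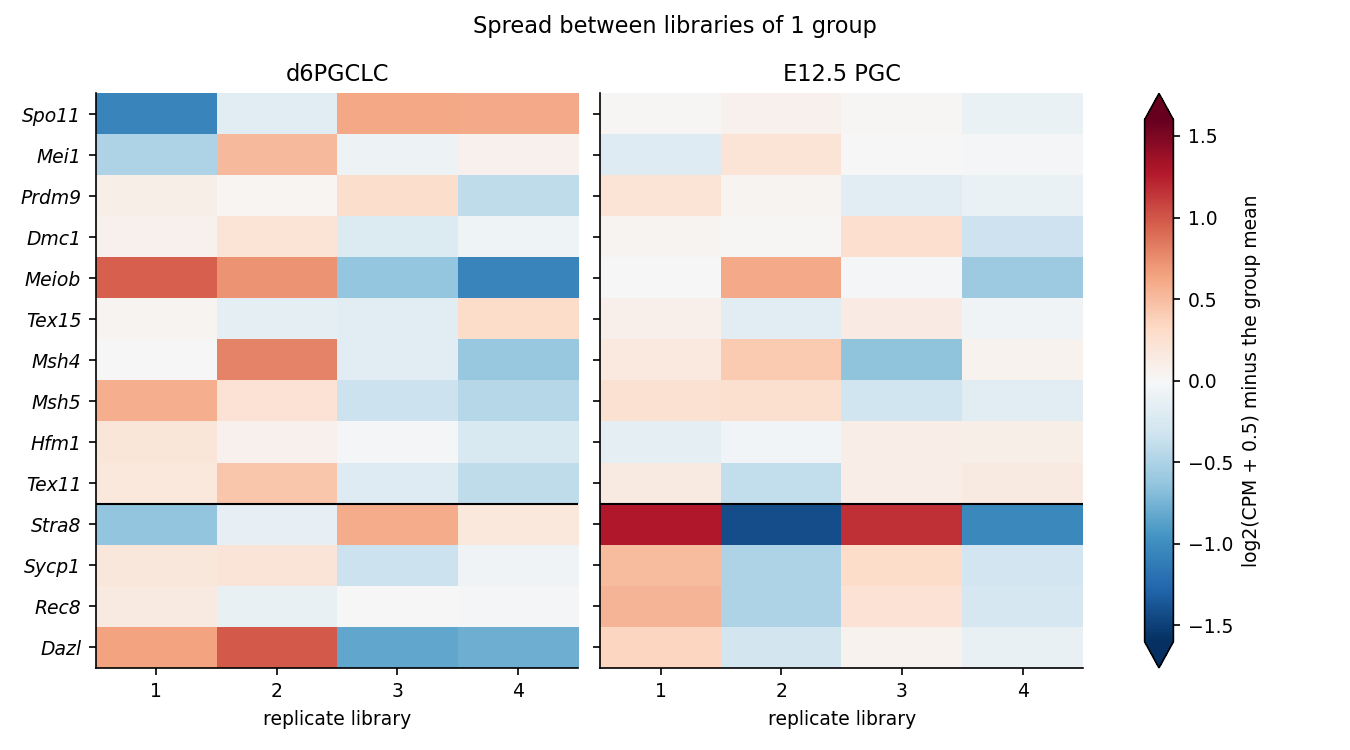
Deviation of log2(CPM + 0.5) from the mean of the group (colour scale) in each replicate library of d6PGCLCs and E12.5 PGCs, for the 10 recombination genes (above the line) and Stra8, Sycp1, Rec8 and Dazl (below it). In E12.5 PGCs Stra8 is high in replicates 1 and 3 and low in 2 and 4 while the row of Spo11 is nearly flat, and in d6PGCLCs Meiob and Dazl are high in replicates 1 and 2 where Spo11 is low.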

How the data were processed

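RNA-seq libraries of 4 d6PGCLC pools and 4 E12.5 PGC pools were made with a stranded poly(A) kit and read single-end. The authors used STAR to align reads to GRCm38 plus the ERCC spike-in sequences and counted uniquely mapped reads with QuasR on the exons of an isoform picked at random per gene. They deposited unnormalized counts and the exonic length in bases. Entrez identifiers were matched to RefSeq symbols of GRCm38 for 21907 of 21950 genes. Counts were fitted in R 4.3.3 with edgeR 4.0.16 (TMM, quasi-likelihood test, prior count 0.125, no filter on low counts, cell type as the only term), with Benjamini-Hochberg adjustment over all 21950 genes. CPM use TMM-scaled library sizes, and RPKM divide these by the counted length. The ratio of Meiob to Rpa1 added 0.5 counts and used exact permutation over libraries (SciPy 1.17.1). Overlaps and transcript lengths came from GENCODE M21.

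The recombination genes, the lists and the tests were chosen with earlier results of these data known. All 10 recombination genes are named. A gene of the partner, relative, and entry and axis lists is named where it passed with a log2 fold change of at least 2 in size, is a relative in a ratio, or is among the 3 most abundant of its list; exceptions are stated. Marker genes of cell types are given as list counts and sums, and those named were chosen after their values were seen. Of 22 listed partners 17, of 22 relatives 19 and of 13 entry and axis genes 11 are in the table, and the others were not analysed here. Alternatives were edgeR's likelihood ratio test, DESeq2 1.42.0, other normalizations, filters on low counts, a prior count of 2, a replicate block, an adjusted p of at most 0.01, a pseudocount of 1 in the ratios, and leaving out libraries. The results of 3 genes of the lists and of 2 of the 3 ratios are not reported here. Of the steps, only the edgeR test was tried on simulated counts. Differences were planted there in genes above a mean level that Mei1, Prdm9, Meiob and Msh4 do not reach.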

Additional observations from a re-analysis of the deposited data

Results flagged for a closer look

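In the E12.5 PGC group, replicate 2 lay far from the other libraries for Tex11, at 18.9 CPM against 26.9 to 27.6 CPM in the other 3 (the gap was 0.925 of the range of the group, above the critical value of Dixon's test for 4 samples). Levels of the 10 genes and the 3 ratios were examined in both groups, 26 sets in all, of which chance flags about 1 in 20. Without that library the log2 fold change of Tex11 was -2.84, and -2.73 with it. The same library held 48 counts of the haemoglobin gene Hba-a2, against 0 to 5 in the others, and the part of this in the value of Tex11 was not tested.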

How the results depend on the processing

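Of 175 alternative values of the 10 log2 fold changes, 172 kept their direction and side of the threshold, 1 (Msh4 without 2 libraries) no longer passed, 2 (Mei1) newly passed, and none reversed. Genes that a filter removed are not in this total (Mei1 and Meiob with both filters, Msh4 with filterByExpr). Nor is the adjusted p of at most 0.01, which Msh4 did not pass in the main edgeR test (adjusted p = 0.0119). The number of recombination genes higher in d6PGCLCs was 1 in place of 2, and with a log2 fold change of at least 2 it was 0 in place of 1, with CPM above 1 in at least 3 libraries and with filterByExpr, since both leave out Meiob. A prior count of 2 also gave 0, because the value of Meiob was then 1.75. Leaving out libraries gave 0 to 1 with the fold threshold, and 1 to 2 genes higher without overlap. The median of the 10 genes was -1.66 with the CPM filter, -1.09 with a prior count of 2, and between -1.70 and -1.21 when libraries were left out. Relatives lower in d6PGCLCs were 3 in place of 5 at an adjusted p of at most 0.01. The ratios could not pass with a library left out, since 3 against 4 cannot give a p below 0.0571. With the replicate block, 6 recombination genes were lower and 2 higher, and their median was -1.39. Libraries with the same number did not all deviate together (r of 0.302, 0.114, -0.0382 and 0.0411 for numbers 1 to 4 over 11487 genes). d6PGCLC replicates 1 and 4 correlated best with their own number and replicates 2 and 3 with another, so that the numbers were not taken as pairs. Counts of 3 or fewer in at least 1 library limit Mei1, Msh4, Meiob and Spo11.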
